A study of Mus musculus with 10 samples.

Results

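The genes described here encode the intraflagellar transport (IFT) machinery and the base of the primary cilium, 35 genes of the 22180 with a probe set of their own. They were chosen by name: every gene whose symbol begins with Ift, Bbs, Tctn or Nphp followed by a digit, and Wdr19, Wdr35, Ttc21b, Traf3ip1, Cluap1, Mks1, Cc2d2a, Rpgrip1l, B9d1 and B9d2. The 35 genes had 36 probe sets, because Tctn3 had 2, and a gene with more than 1 was read from the probe set whose mean was highest across the 10 arrays. Genes without a probe set of their own were not analysed here.

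RNA was measured on 10 Affymetrix arrays of sorted mouse lung cells labelled as type 2 alveolar epithelial cells, which make surfactant. All were at postnatal day 4, from mice with a background mixed from C57BL/6, 129S6 and CD-1. Apart from the tamoxifen on which their Cre depends, the mice were untreated. The 5 Axin2+ samples came from Axin2CreERT2-TdTom mice, in which a tamoxifen-dependent Cre is driven by Axin2, a target of Wnt signalling, and were gated on TdTomato and the epithelial protein EpCAM and against CD31 and CD45, proteins of endothelial cells and leukocytes. The 5 SP-C+ samples came from SftpcCreERT2-R26REYFP mice, in which the Cre is driven by the surfactant protein C gene Sftpc, and were sorted on YFP, with 24 h of lineage tracing given in the study design. Day 4 is taken from the titles and age labels, since a description shared by all samples names day 3 and adult cells. The question was how Wnt-responsive type 2 cells differ from type 2 cells as a whole, and mouse line, reporter and gate differ with it and cannot be told apart from it. No type 2 cell protein was part of the gate described for Axin2+ cells. No label says whether samples were single animals or pools, so how far the spread behind the p-values is technical is not known. The mean of Y-linked genes was 3.87, 8.85, 3.94, 9.24 and 4.02 in Axin2+ replicates 1 to 5. In SP-C+ replicates 1 to 5 it was 7.11, 9.34, 9.08, 4.06 and 9.42. Arrays of a group thus did not all come from the same animals, and low values were more frequent in Axin2+. SP-C+ replicate 1 lay between the low and high values, and the reason was not tested.

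A primary cilium is a single antenna-like projection of the cell membrane built on a centriole, and multiciliated airway cells carry many motile ones. Both kinds are assembled by IFT, in which the IFT-B complex carries cargo outwards on kinesin and the IFT-A complex carries it back on dynein and brings membrane proteins in. The BBSome moves membrane proteins out of the cilium, and the transition zone at the base is a gate that controls what enters. Type 2 cells bear no motile cilia, and the markers of multiciliated cells are therefore given beside these genes.

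Counted gene by gene, genes of the cilium were on balance higher in Axin2+ arrays. Of the 35, 18 (51.4%) were higher at an adjusted p under 0.05 and 1, Ift20, was lower (2.86%), and 16 did not pass. Over all 22180 genes 8.61% were higher and 8.95% lower in the same fit, and 17.6% were called in either direction. Differences were taken as the Axin2+ mean minus the SP-C+ mean of log2 values, and adjusted p-values are Benjamini-Hochberg values from limma over all genes. The median difference of the 35 genes was 0.37, against -0.04 over all genes, and the largest difference over all arrays, of Rpgrip1l, was 1.96-fold, whereas 2.89% of all genes were higher by at least 2-fold. In 16 of the 35 genes all Axin2+ arrays lay above all SP-C+ arrays, which was true of 7.38% of all genes. In Ift20 all lay below, as in 7.66% of all genes. The summed linear signal of the 35 genes overlapped, from 12245 to 13127 in Axin2+ and from 10501 to 12507 in SP-C+ arrays. For IFT-B genes it ran from 7149 to 7667 in Axin2+ and from 7147 to 8096 in SP-C+ arrays. Sums of Bbs genes overlapped too, and those of IFT-A and transition zone genes were higher in every Axin2+ array. Such sums weigh bright genes most, and Ift20 was the brightest of the 35. The forest plot of the differences shows the split within each complex, with rises between 0.37 and 0.97 and most of the other genes near 0.

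**Figure D1:**
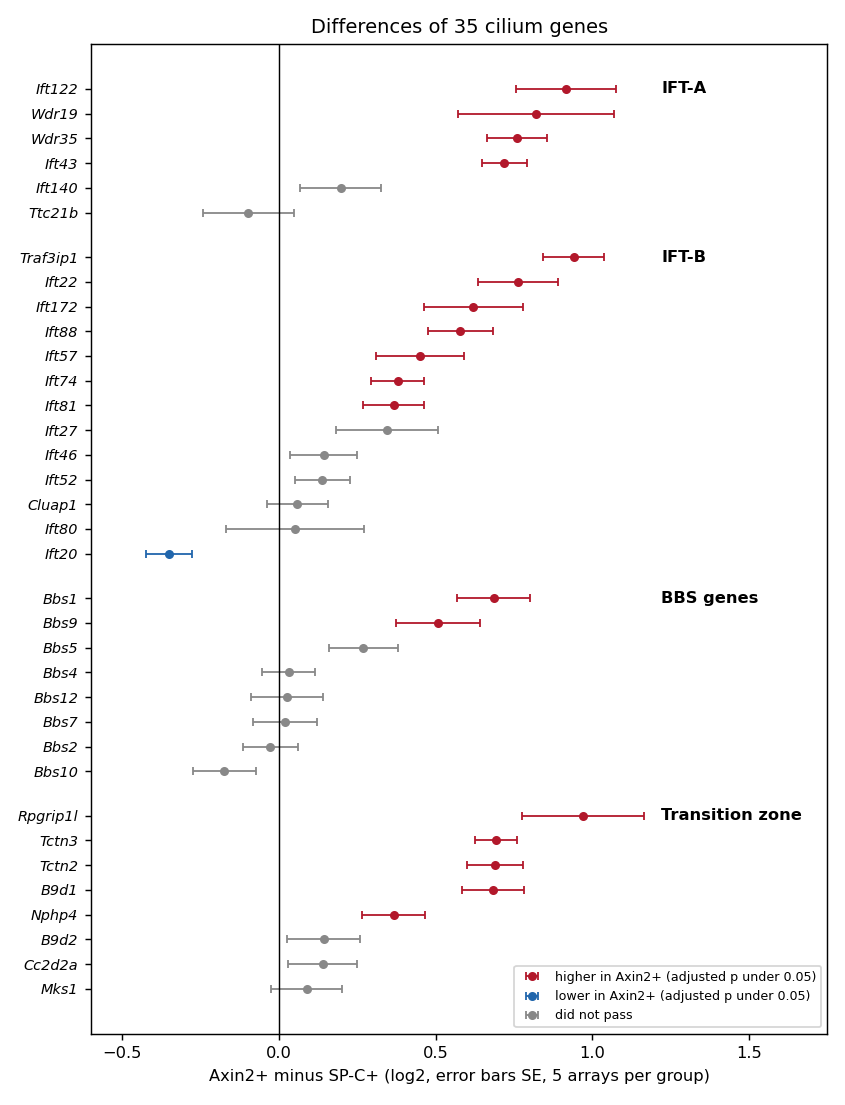
Difference of each of the 35 genes between Axin2+ and SP-C+ arrays, on the log2 scale, with its SE (5 arrays per group), grouped by complex. Red points passed the threshold as higher in Axin2+ (18 genes), the blue point as lower (Ift20), and grey points did not pass (16 genes).

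The driver genes of the labels were Axin2, at 7.93 ± 0.12 in Axin2+ and 8.46 ± 0.06 in SP-C+ arrays (SD, n = 5), and Sftpc, at 14.11 ± 0.03 in Axin2+ and 14.02 ± 0.03 in SP-C+ arrays, with differences of -0.53 (adjusted p = 3.28e-04 in limma) and 0.10 (adjusted p = 0.324) and an exact two-sided permutation p of 0.00794 for each, the smallest these arrays allow. Axin2 was thus lower in the arrays labelled Axin2+; the sources used here do not say where its probe set lies relative to the Cre insertion, and Axin2+ is used only as a label. Type 2 cell markers were high in both, with 10 genes at a mean log2 value of 13.11 in Axin2+ and 13.25 in SP-C+ arrays. Of the 10, 1 was lower in Axin2+. The lowest of them, Etv5, was at percentile 99.45 of all genes in SP-C+ arrays. Sftpc lay close to the highest value of the series, 14.16. Whether values this bright still follow the amount of RNA was not tested, so equal type 2 cell content cannot be read from them. Correlations between arrays ran from 0.993 to 0.995 within Axin2+, from 0.987 to 0.993 within SP-C+ and from 0.973 to 0.983 between them.

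Markers of multiciliated, type 1 alveolar and club cells were on balance higher in Axin2+ arrays too. Of 30 multiciliated cell markers 25 were higher in Axin2+ arrays and 1 was lower, with a median difference of 2.00. Their summed signal on the linear scale ran from 10619 to 12216 in Axin2+ arrays and from 2722 to 3212 in SP-C+ arrays. Array values are never 0, and the mean of 26 markers exceeded that of the median gene in Axin2+ arrays, against 7 in SP-C+ arrays. Sntn, a protein gene of the tips of motile cilia, rose by 4.07 ± 0.12 (SE) and Rsph4a, a radial spoke gene, by 3.84 ± 0.13, with adjusted p-values of 2.46e-10 and 6.68e-10 in limma. Sntn was at 8.93 ± 0.26 in Axin2+ and 4.86 ± 0.14 in SP-C+ arrays (SD, n = 5), and Rsph4a at 8.84 ± 0.29 in Axin2+ and 5.01 ± 0.13 in SP-C+ arrays, below the median gene there. Ccno, a gene of centriole amplification in multiciliated cells, fell by 0.75 (SE 0.09, adjusted p = 7.71e-05 in limma). All 10 type 1 alveolar cell markers (summed signal 43873 to 52206 in Axin2+ arrays, against 18413 to 21685 in SP-C+ arrays) and all 4 club cell markers (11725 to 14586 in Axin2+ arrays, against 1685 to 3729 in SP-C+ arrays) were also higher. The 4 leukocyte markers had a mean log2 value of 5.71 to 6.09 in Axin2+ arrays and 5.95 to 6.64 in SP-C+ arrays. None of these 4 was called, nor any of 2 basal, 1 neuroendocrine and 3 endothelial markers. Of 4 mesenchymal markers 1 was lower and 0 were higher. The part of these markers in the differences of the cilium genes was not tested, and in bulk RNA more cells of a type cannot be told apart from more RNA per cell.

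The arrays did not behave alike within the SP-C+ group. SP-C+ replicate 1 was the lowest of the 5 SP-C+ arrays in 20 of the 35 cilium genes (57.1%), against 23.3% of all genes, and in all 6 IFT-A genes. The mean over the 35 genes was 7.33 there, against 7.61, 7.61, 7.71 and 7.64 in SP-C+ replicates 2 to 5, and it ran from 7.88 to 8.0 in Axin2+ arrays. The 4 mesenchymal markers had a mean of 7.90 in SP-C+ replicate 1 and 6.93 to 7.30 in the other SP-C+ arrays. The 3 endothelial markers had 8.17 there and 6.65 to 7.31 in the others. Leukocyte markers (6.64, against 5.95 to 6.28) and type 1 alveolar markers (9.94, against 9.47 to 9.60) were also highest in that array. The multiciliated markers spread little within SP-C+, from 5.84 to 5.94, with replicate 1 at the lower end. The part of these markers in the low cilium gene values of that array was not tested. Without SP-C+ replicate 1, 17 of the 35 genes were higher and Ift20 was lower, with a median difference of 0.29. Replicates 4 and 5 had the highest IFT-A means of the SP-C+ arrays, 7.93 and 7.90, against 7.17, 7.69 and 7.70 in replicates 1 to 3. Without replicates 4 and 5, 16 of the 35 genes were higher. Without replicates 1, 2 and 3, which leaves 2 SP-C+ arrays, 15 were. These include Ift27, which did not pass over all arrays, while Bbs9, Ift74, Ift81 and Wdr19 lost the call. Both splits were chosen after the array values were seen. For genes highest or lowest in the arrays left out, the direction of the change follows from that choice. Fewer arrays also make the threshold harder to reach.

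The plot of every array shows these patterns by gene. Over all 35 genes the SD between arrays was larger in SP-C+ than in Axin2+ for 28 (80%), against 66.3% of all genes, with a median SD of 0.13 in Axin2+ and 0.18 in SP-C+ arrays.

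**Figure D2:**
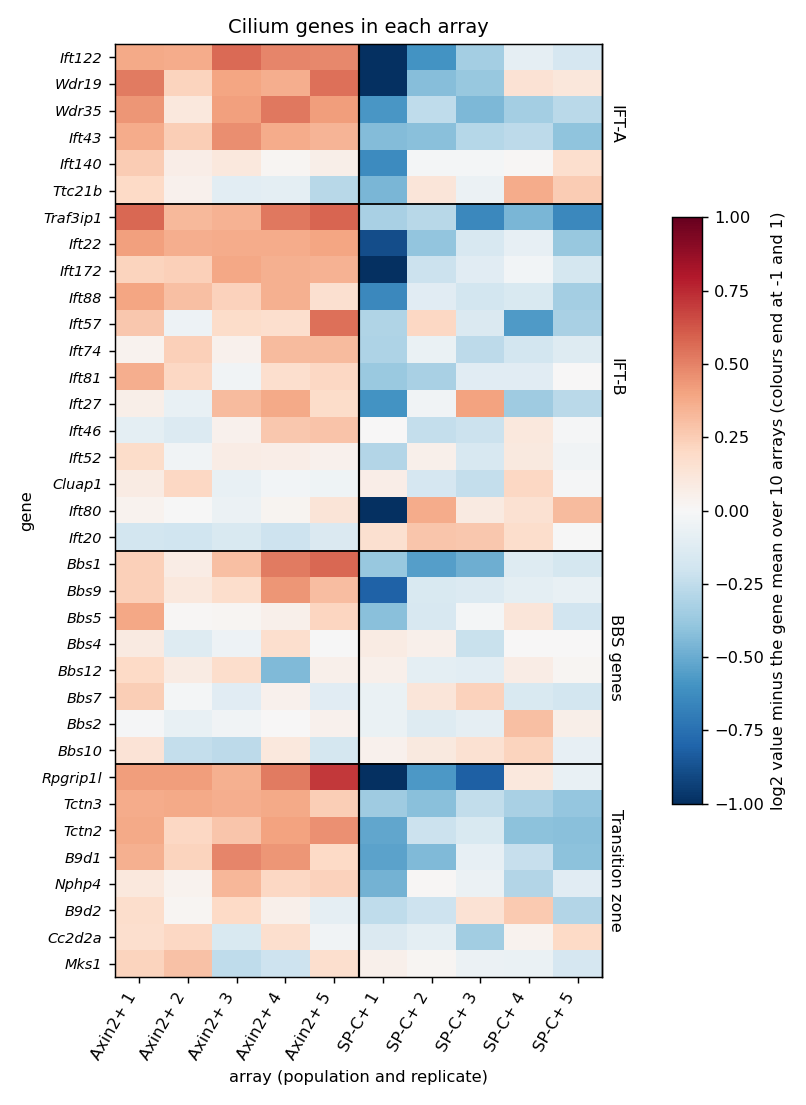
Each cilium gene in each array, as its log2 value minus its mean over the 10 arrays (colour scale ending at -1 and 1), with Axin2+ arrays left of SP-C+ arrays and genes grouped by complex. SP-C+ replicate 1 is the darkest blue column among IFT-A genes, and the red and blue blocks are clearest for IFT-A and transition zone genes.

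**Figure D3:**
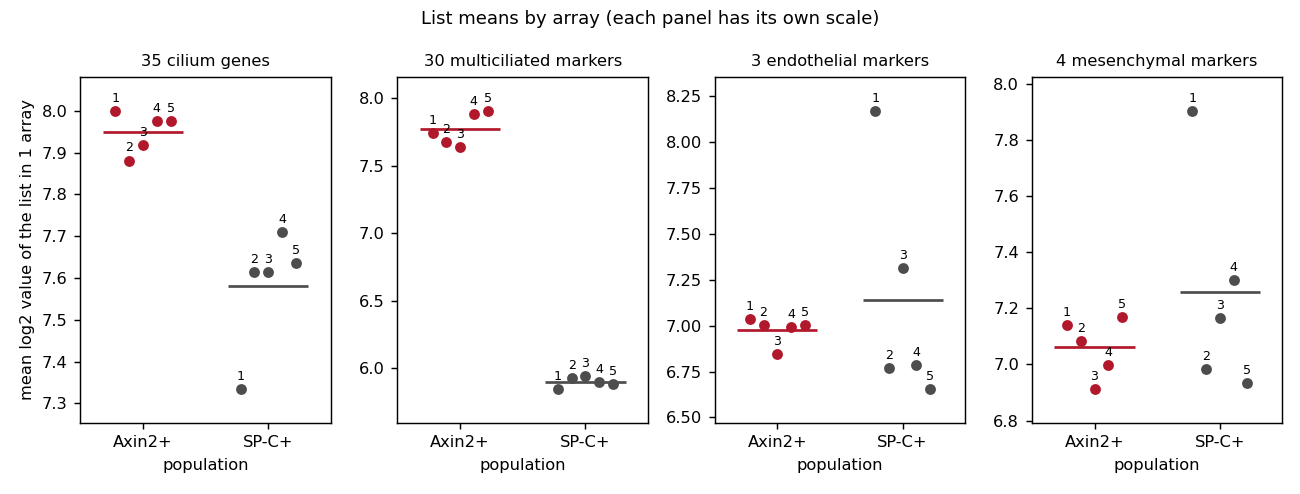
Mean log2 value of 4 gene lists in each array, with Axin2+ left of SP-C+, numbers for replicates and a bar for the group mean. Cilium genes and multiciliated markers lay higher in every Axin2+ array than in any SP-C+ array, and SP-C+ replicate 1 held the lowest cilium mean (7.33) beside the highest endothelial (8.17) and mesenchymal (7.90) means.

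The promoters of the cilium genes were searched for the X-box, the sequence that RFX transcription factors bind and through which they are known to control ciliary genes from worms to mammals. The X-box was searched as GTNNCC and GGNNAC separated by 1 to 3 bases, a form that reads the same on both strands, in RefSeq windows from 250 bases before to 50 bases after each gene's start (GRCm38.p6). Windows were found for 32 of the 35 genes, 35 windows in all. Of these genes 10 (31.3%) had a match, against 1082 of 27025 RefSeq genes (4.00%). The windows of cilium genes were rich in CG, with a median of 22 CG dinucleotides against 7, and among RefSeq genes with a window of at least 10 CG the share with a match was 4.85%, against 30% of the cilium genes with such a window. The half-site GTTGCC, on either strand, was found in 16 of the 32 genes (50%) and in 14.1% of all genes, and it can lie within an X-box match.

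Matches are shown because they set genes of all 4 groups side by side, each read 5′ to 3′ on the gene's strand with capitals at the letters the search fixed. Among genes called higher, 7 of 16 had a match, with 2 each in Ift22 and Ift57:
Wdr19, chr5:65199662-65199675, plus strand: GTctCCtgGGtgAC
Ift22, chr5:136908087-136908100, plus strand: GTttCCtgGGctAC
Ift22, chr5:136908117-136908130, plus strand: GTcgCCgtGGaaAC
Ift57, chr16:49699207-49699220, plus strand: GTtgCCgtGGtgAC
Ift57, chr16:49699234-49699246, plus strand: GTtgCCtGGtaAC
Bbs1, chr19:4906613-4906626, minus strand: GTtgCCaaGGcgAC
Tctn2, chr5:124598687-124598700, plus strand: GTtaCCatGGctAC
Tctn3, chr19:40612359-40612371, minus strand: GTtgCCaGGtaAC
Nphp4, chr4:152477911-152477924, plus strand: GTctCCtaGGtaAC
Among genes that did not pass, 3 of 15 had a match, and both lists hold genes of the transition zone and the BBSome:
Bbs4, chr9:59353472-59353485, minus strand: GTcgCCcgGGaaAC
Bbs7, chr3:36613497-36613510, minus strand: GTtgCCttGGaaAC
Mks1, chr11:87853191-87853204, plus strand: GTtgCCagGGgaAC
Whole windows are printed for 1 called gene of each of 3 complexes and for Ift20, the 1 gene that fell, with capitals at the X-box matches:
Wdr19, chr5:65199446-65199745, plus strand: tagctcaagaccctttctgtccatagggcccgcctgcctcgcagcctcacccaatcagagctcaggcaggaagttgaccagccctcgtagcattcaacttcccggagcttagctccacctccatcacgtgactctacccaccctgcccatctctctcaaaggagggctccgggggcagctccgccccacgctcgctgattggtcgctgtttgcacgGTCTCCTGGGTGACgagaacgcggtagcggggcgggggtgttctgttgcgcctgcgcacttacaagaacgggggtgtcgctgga
Ift22, chr5:136907900-136908199, plus strand: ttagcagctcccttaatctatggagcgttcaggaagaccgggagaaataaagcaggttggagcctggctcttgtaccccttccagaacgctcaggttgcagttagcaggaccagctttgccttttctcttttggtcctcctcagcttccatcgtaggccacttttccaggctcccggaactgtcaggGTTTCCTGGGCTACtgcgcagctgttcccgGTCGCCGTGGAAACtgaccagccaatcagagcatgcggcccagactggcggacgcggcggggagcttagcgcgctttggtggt
Tctn2, chr5:124598499-124598798, plus strand: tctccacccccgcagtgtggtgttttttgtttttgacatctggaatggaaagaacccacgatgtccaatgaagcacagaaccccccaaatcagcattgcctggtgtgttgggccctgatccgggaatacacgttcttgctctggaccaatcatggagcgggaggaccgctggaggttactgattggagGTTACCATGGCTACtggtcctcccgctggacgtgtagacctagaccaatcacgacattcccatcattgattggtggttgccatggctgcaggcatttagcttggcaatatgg
Ift20, chr11:78536111-78536410, plus strand: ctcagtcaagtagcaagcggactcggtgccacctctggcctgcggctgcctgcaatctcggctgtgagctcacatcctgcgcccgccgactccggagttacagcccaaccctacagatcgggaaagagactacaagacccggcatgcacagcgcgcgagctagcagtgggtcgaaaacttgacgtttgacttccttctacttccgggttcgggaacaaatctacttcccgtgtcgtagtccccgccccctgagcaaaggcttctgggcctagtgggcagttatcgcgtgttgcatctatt
The matches in these windows began 34 bases (Wdr19), 63 and 33 bases (Ift22) and 62 bases (Tctn2) before the gene's start. The letters searched were not in the Ift20 window. A match describes the sequence and does not show that a factor binds there. Whether the share with a match differs between genes called higher and the rest was not tested. Of the 7 called genes with a match, Ift57, Nphp4 and Wdr19 lost the call in some alternative fits.

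**Figure D4:**
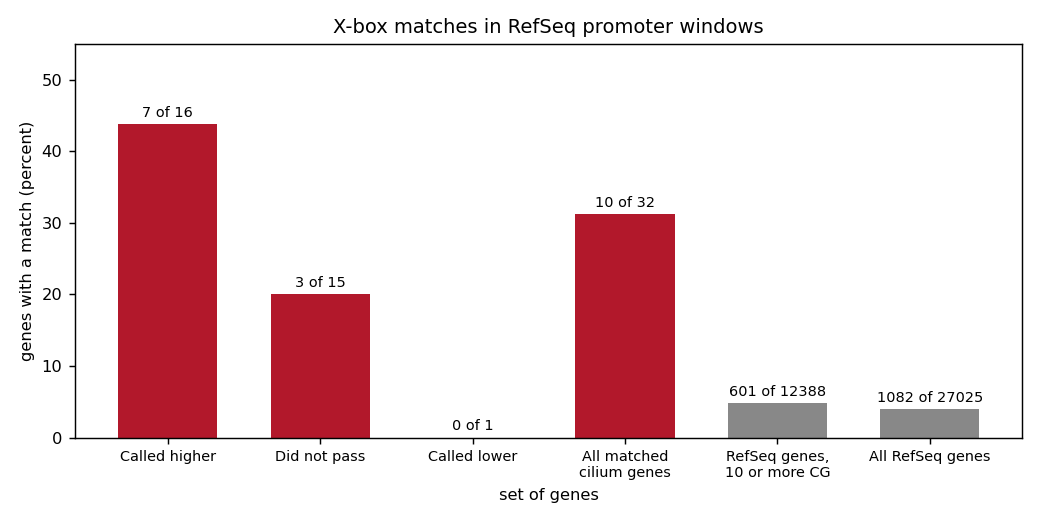
Percent of genes with an X-box match in a RefSeq promoter window, for cilium genes by their call, all matched cilium genes, RefSeq genes with a window of 10 or more CG, and all RefSeq genes, with counts above the bars. The share was 31.3% of cilium genes, against 4.85% and 4.00% of the RefSeq sets. The shares by call rest on few genes and were not compared in a test.

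Values of 3 genes of ciliary transcription factors are given singly, and these 3 were named after their values were seen. Foxj1, Rfx2 and Rfx3 are among the multiciliated cell markers already counted above, so they are not a separate set. Foxj1, the regulator of motile cilia, rose by 2.10 ± 0.18 (SE, adjusted p = 2.59e-06 in limma). Rfx2 was at 8.47 ± 0.15 in Axin2+ and 8.10 ± 0.20 in SP-C+ arrays (SD, n = 5), a rise of 0.38 ± 0.11 (adjusted p = 0.0299 in limma) that missed the threshold when Axin2+ replicate 3, 4 or 5 or SP-C+ replicate 1, 2 or 5 was left out (adjusted p of 0.0514 to 0.0783) and in 4 other alternative fits (adjusted p up to 0.139). Rfx3 was at 8.94 ± 0.11 in Axin2+ and 8.87 ± 0.32 in SP-C+ arrays and differed by 0.07, short of the threshold (adjusted p = 0.773).

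IFT-A genes had the highest median difference of the 4 groups, 0.74, and 4 of 6 rose. IFT122, IFT140 and WDR19 form the core of the complex, and IFT43, WDR35 and TTC21B are its outer subunits. Ift122 measured 7.75, 7.74, 7.94, 7.86 and 7.85 in Axin2+ replicates 1 to 5, against 6.28, 6.77, 7.03, 7.28 and 7.21 in SP-C+ replicates 1 to 5. All Axin2+ arrays lay above all SP-C+ arrays, and SP-C+ replicate 1 was far below the rest. The difference was 0.91 ± 0.16 (SE, n = 5 each, limma adjusted p = 0.00139), and it was 0.76 without SP-C+ replicate 1 and 0.59 without SP-C+ replicates 1, 2 and 3, both of which passed.

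Wdr19 measured 8.97, 8.67, 8.85, 8.82 and 9.0 in Axin2+ replicates 1 to 5, against 6.96, 8.03, 8.07, 8.60 and 8.56 in SP-C+ replicates 1 to 5. The groups did not overlap, but SP-C+ arrays spanned 1.64 on the log2 scale, with replicate 1 lowest and replicates 4 and 5 closest to the Axin2+ arrays. The difference of 0.82 ± 0.25 passed narrowly (adjusted p = 0.0388 in limma). It missed the threshold in 11 of 22 alternative fits, among them 7 of the 10 that left out 1 array, those lacking any Axin2+ array or SP-C+ replicate 2 or 3 (adjusted p reaching 0.0805). Wdr19 was at 0.28 with SP-C+ replicates 1, 2 and 3 left out (adjusted p = 0.124) and at 1.18 with SP-C+ replicates 4 and 5 left out (adjusted p = 0.00359).

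The outer subunit genes Wdr35 and Ift43 rose with little spread. Wdr35 averaged 8.42 ± 0.16 in Axin2+ and 7.66 ± 0.14 in SP-C+ arrays (SD, n = 5), a difference of 0.76 ± 0.10 (adjusted p = 1.07e-04 in limma). Ift43 averaged 8.65 ± 0.08 in Axin2+ and 7.94 ± 0.08 in SP-C+ arrays and differed by 0.72 ± 0.07 (adjusted p = 1.29e-05). Ift140 and Ttc21b did not pass, at 0.20 ± 0.13 and -0.10 ± 0.14, so core and outer subunits were found on both sides of the threshold.

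IFT-B genes split in 3 ways, with 7 of 13 higher, Ift20 lower and 5 not past the threshold, at a median of 0.37. Traf3ip1, which encodes IFT54, a subunit of the peripheral part of the complex that also binds microtubules, measured 7.71, 7.46, 7.48, 7.67 and 7.72 in Axin2+ replicates 1 to 5, against 6.82, 6.86, 6.49, 6.68 and 6.49 in SP-C+ replicates 1 to 5. The groups were well apart, by 0.61 between the lowest Axin2+ and the highest SP-C+ array, and the difference was 0.94 ± 0.10 (SE, n = 5 each, limma adjusted p = 1.76e-05).

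Ift22 is a Rab-like GTPase gene whose promoter window holds the X-box matches shown above. It measured 9.13, 9.08, 9.09, 9.08 and 9.11 in Axin2+ replicates 1 to 5. In SP-C+ replicates 1 to 5 it measured 7.83, 8.32, 8.56, 8.64 and 8.34. The Axin2+ arrays lay close together and all lay above the SP-C+ arrays. The difference was 0.76 ± 0.13 (SE, n = 5 each, limma adjusted p = 0.00107).

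Ift172, the largest subunit and a link between anterograde and retrograde transport, rose by 0.62 ± 0.16, adjusted p = 0.0162. Its SP-C+ replicate 1 was at 6.74 and the other SP-C+ arrays at 7.54 to 7.73, and without that array the rise was 0.44 (adjusted p = 0.00165). Ift88, which encodes polaris and is mutated in a classic mouse model of polycystic kidney disease, rose by 0.58 ± 0.10, adjusted p = 0.00176. Ift74 and Ift81, whose proteins pair to carry tubulin, rose by 0.38 ± 0.09 (adjusted p = 0.00813) and 0.37 ± 0.10 (adjusted p = 0.0197), and Ift81 did not pass without Axin2+ replicate 1 (adjusted p = 0.0526) or with median centring (adjusted p = 0.0527). Ift74 missed the threshold narrowly with quantile normalization (adjusted p = 0.05004). With SP-C+ replicates 1, 2 and 3 left out neither passed (adjusted p = 0.0759 for Ift74 and 0.223 for Ift81). Ift57 rose by 0.45 ± 0.14 (adjusted p = 0.0439), a call lost in 14 of 22 alternative fits. These included 8 of the 10 that left out 1 array, all except those lacking Axin2+ replicate 2 or SP-C+ replicate 2 (adjusted p reaching 0.103), and both scalings. Leaving out SP-C+ replicates 4 and 5 gave 0.30 for Ift57 and the highest adjusted p, 0.186.

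Ift20 went the other way. Its protein is the IFT-B subunit that also sits at the Golgi, where it helps send membrane proteins to the cilium. It measured 11.84, 11.83, 11.88, 11.82 and 11.88 in Axin2+ replicates 1 to 5, against 12.18, 12.30, 12.29, 12.20 and 12.02 in SP-C+ replicates 1 to 5. Every Axin2+ array lay below every SP-C+ array, and the Axin2+ arrays lay close together. The difference was -0.35 ± 0.07 (SE, n = 5 each, limma adjusted p = 0.00463), and it was -0.26 and no longer past the threshold when SP-C+ replicates 1, 2 and 3 were left out (adjusted p = 0.0789).

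The other IFT-B genes did not pass. Ift27, a GTPase gene of the link to the BBSome, was at 0.34 ± 0.16 (adjusted p = 0.18). Without SP-C+ replicate 3, its highest SP-C+ array at 6.93, it was at 0.49 and passed (adjusted p = 0.0229). It also passed with SP-C+ replicates 1, 2 and 3 left out. Ift46, Ift52 and Cluap1, which encodes IFT38, lay between 0.06 and 0.14. Ift80 was at 0.05 ± 0.22, with 7.24 in SP-C+ replicate 1 against 8.39 to 8.67 in the other SP-C+ arrays, and at -0.21 without that array (adjusted p = 0.116).

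Among the 8 Bardet-Biedl syndrome genes 2 rose and 6 did not pass, at a median of 0.03. Bbs1, Bbs2, Bbs4, Bbs5, Bbs7 and Bbs9 encode BBSome subunits, and Bbs10 and Bbs12 encode chaperonin-like proteins that help assemble it. Bbs1 measured 7.87, 7.71, 7.93, 8.16 and 8.21 in Axin2+ replicates 1 to 5, against 7.26, 7.09, 7.15, 7.51 and 7.46 in SP-C+ replicates 1 to 5. The groups did not overlap, and the difference was 0.68 ± 0.12 (SE, n = 5 each, limma adjusted p = 0.00117).

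Bbs9, which encodes a scaffold subunit of the BBSome, measured 8.74, 8.61, 8.69, 8.95 and 8.81 in Axin2+ replicates 1 to 5, against 7.70, 8.35, 8.37, 8.41 and 8.43 in SP-C+ replicates 1 to 5. SP-C+ replicate 1 stood apart and the other 4 SP-C+ arrays agreed within 0.08. The difference was 0.51 ± 0.13 (SE, n = 5 each, limma adjusted p = 0.0197), and 0.37 without SP-C+ replicate 1 (adjusted p = 0.00876). It missed the threshold when Axin2+ replicate 4 was left out (adjusted p = 0.0523) and when SP-C+ replicates 1, 2 and 3 were (adjusted p = 0.0650).

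Bbs5 was at 0.27 ± 0.11 (adjusted p = 0.121). Bbs2, Bbs4, Bbs7 and Bbs12 lay between -0.03 and 0.03, with SEs of 0.08 to 0.11, and their sign turned with the scaling or the arrays used. The chaperonin-like gene Bbs10 was at -0.17 ± 0.10. Whether Bbs1 and Bbs9 differ from the other 6 was not tested.

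Transition zone genes had differences above 0 in 8 of 8, and 5 passed, at a median of 0.52. Rpgrip1l, a scaffold gene that links both protein modules of the gate, had the largest difference of the 35 genes over all 10 arrays. It measured 8.57, 8.57, 8.51, 8.67 and 8.86 in Axin2+ replicates 1 to 5, against 7.08, 7.58, 7.34, 8.26 and 8.08 in SP-C+ replicates 1 to 5. The groups did not overlap, while SP-C+ arrays spread from 7.08 to 8.26 with replicates 4 and 5 highest. The difference was 0.97 ± 0.19 (SE, n = 5 each, limma adjusted p = 0.00361), and its size depended on the SP-C+ arrays. It was 0.82 without SP-C+ replicate 1 and 1.12 without SP-C+ replicate 4. With SP-C+ replicates 4 and 5 left out, its highest SP-C+ arrays, it was 1.31. With SP-C+ replicates 1, 2 and 3 left out, its lowest, it was 0.47 (adjusted p = 0.0274). The direction of such shifts follows from which arrays are left out. The difference passed in all 22 alternative fits.

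Tctn3, a tectonic gene of the Meckel syndrome module, measured 7.91, 7.92, 7.90, 7.92 and 7.78 in Axin2+ replicates 1 to 5, against 7.19, 7.12, 7.29, 7.21 and 7.16 in SP-C+ replicates 1 to 5. Arrays of each group lay close together and the groups were far apart, at 0.69 ± 0.07 (SE, n = 5 each, limma adjusted p = 1.02e-05). Its other probe set was much dimmer, at 4.71 ± 0.06 in Axin2+ and 4.65 ± 0.21 in SP-C+ arrays (SD, n = 5), and gave 0.06 (adjusted p = 0.808 over all probe sets). The mean of both gave 0.37, which passed (adjusted p = 0.00326).

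Tctn2 and B9d1, genes of the same module, rose by 0.69 ± 0.09 and 0.68 ± 0.10 (adjusted p = 1.23e-04 and 3.46e-04 in limma). B9d2 and Mks1, whose proteins share the B9 domain with that of B9d1 and act with it, were at 0.14 ± 0.12 and 0.09 ± 0.11 and did not pass, and neither did Cc2d2a, at 0.14 ± 0.11. Nphp4, of the nephronophthisis module, measured 5.95, 5.88, 6.18, 6.05 and 6.07 in Axin2+ replicates 1 to 5, against 5.37, 5.86, 5.79, 5.55 and 5.73 in SP-C+ replicates 1 to 5, and its probe set was the dimmest of the 35. The groups were 0.02 apart, and the rise of 0.37 ± 0.10 (adjusted p = 0.0239) did not pass in 8 of 21 alternative fits. These were the fits without Axin2+ replicate 3, 4 or 5, without SP-C+ replicate 4 or replicates 4 and 5, with either scaling and over all probe sets (adjusted p up to 0.0718 for Nphp4, with median centring).

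A list of further cilium genes that the naming rule does not take was compared in the same fit. Of 62 names 53 were measured, and 21 were higher (39.6%, against 8.61% of all genes) and 5 lower (9.43%, against 8.95%), with a median of 0.24. By role, 8 of 12 further transition zone genes, 5 of 10 IFT motor genes and 2 of 6 further IFT subunit genes were higher. Of 6 BBSome partner genes 2 were higher and 1 was lower, of 7 trafficking genes 2 were higher and 1 was lower, of 4 inversin compartment genes 1 was higher and 1 was lower, and of 8 genes of distal appendages and cilium initiation 1 was higher and 2 were lower. Dynlrb2, a dynein light chain gene known from motile cilia, rose by 3.31 ± 0.14 (adjusted p = 5.70e-09 in limma), the 1 rise of at least 2-fold on this list. Tmem231, of the Meckel syndrome module, rose by 0.99 ± 0.16 (adjusted p = 9.98e-04). The motor genes Kif3a, of kinesin-2, and Dync2h1, the heavy chain of the retrograde dynein, rose by 0.69 ± 0.12 and 0.39 ± 0.08 (adjusted p = 0.00152 and 0.00301), and the BBSome subunit gene Ttc8 by 0.54 ± 0.08 (adjusted p = 5.36e-04); these 3 were named after their values were seen.

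The 5 lower genes have varied roles. Ccp110, which caps the mother centriole and holds back cilium growth, fell by 0.49 (SE 0.11, adjusted p = 0.00639 in limma). Anks6, of the inversin compartment, fell by 0.43 (SE 0.11, adjusted p = 0.0206), and its call was lost without SP-C+ replicate 3 (adjusted p = 0.0527) and with SP-C+ replicates 1, 2 and 3 left out (adjusted p = 0.135). The other 3, named after their values were seen, were the chaperonin-like Mkks (-0.42 ± 0.09), the centriolar satellite gene Ofd1 (-0.37 ± 0.09) and Rab3ip (-0.34 ± 0.08), which encodes the exchange factor Rabin8 for the ciliary GTPase RAB8. With SP-C+ replicates 1, 2 and 3 left out, the list had 2 lower calls, and those of Anks6, Mkks and Ofd1 were lost.

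Hedgehog signalling passes through the primary cilium in vertebrates, and its genes were counted in the same way. Of 19 measured, 3 were higher (15.8%) and 1 was lower (5.26%), beside 8.61% and 8.95% of all genes, and the median was -0.02. Iqce, which anchors a hedgehog regulator at the ciliary base, rose by 0.73 ± 0.16 (adjusted p = 0.00615 in limma). The co-receptor genes Cdon and Boc went opposite ways, at 0.42 ± 0.10 (adjusted p = 0.0103) and -0.38 ± 0.09 (adjusted p = 0.00894). With SP-C+ replicates 1, 2 and 3 left out neither passed, with Cdon at 0.23 (adjusted p = 0.182) and Boc at -0.29 (adjusted p = 0.115). Ptch1, the receptor and a target of the pathway, named after its value was seen, rose by 0.27 ± 0.07 (adjusted p = 0.0220) and did not pass without Axin2+ replicate 3 (adjusted p = 0.0644), with arrays centred on their medians (0.107) or with SP-C+ replicates 4 and 5 (0.0501) or 1, 2 and 3 (0.0880) left out. The plot of differences by list sets all of these beside each other.

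**Figure D5:**
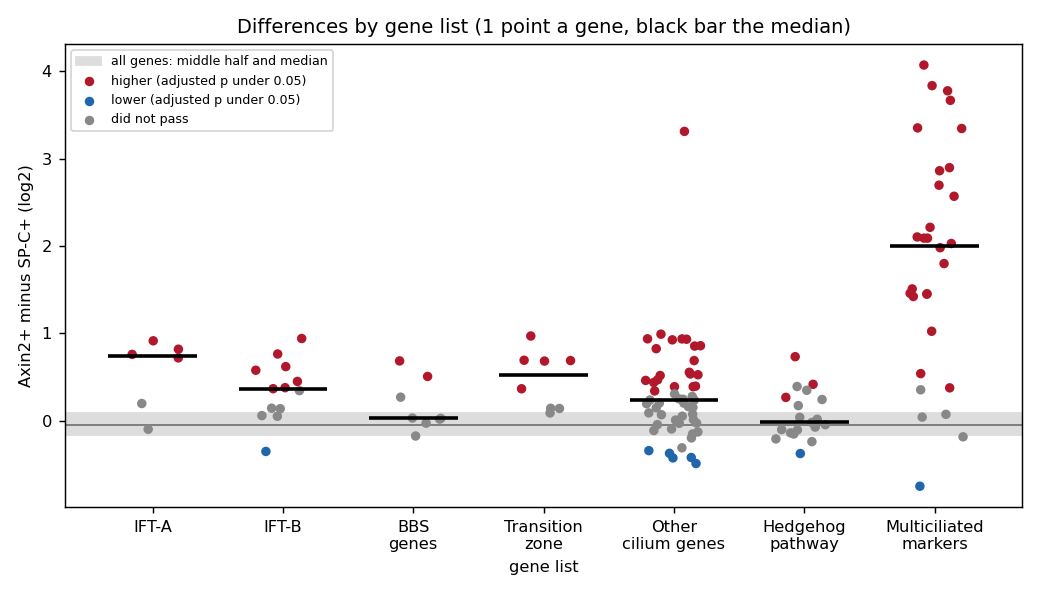
Differences of single genes on the log2 scale by list, with a black bar for each list's median and a grey band for the interquartile range of all genes around their median of -0.04. Cilium complexes had medians of 0.74 (IFT-A), 0.37 (IFT-B), 0.03 (BBS genes) and 0.52 (transition zone), other cilium genes 0.24, hedgehog genes -0.02 and multiciliated markers 2.00.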

How the data were processed

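Gene expression was measured in 10 samples on Affymetrix arrays. Per the labels' protocols, each sample gave 100 ng of RNA, which was copied with a poly(T) primer, amplified linearly and biotinylated. The values are deposited on a log2 scale for 41345 probe sets and had been normalized by the authors. Oligo, RMA and limma are named in the submitters' processing notes, with no version or role. The log base was taken from the range, 1.69 to 14.16. Background signal makes such values understate changes of dim genes, and the number of arrays limits the precision. The platform's annotation gave 23521 probe sets 1 gene symbol, 1814 several and 16010 none.

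Groups came from the sample titles. The main test was limma (version 3.58.1, R 4.3.3, lmFit and eBayes, two-sided, no covariates) over 22180 genes, and the fit was tested on simulated data. Every cilium gene may be named. Values of every array are given for the 2 genes of each complex that rose most, for any that fell, and for the brightest and dimmest probe set. Of other lists, the 2 highest rises and 2 deepest falls are named. Members and lists were chosen with earlier results of these data known. Alternatives were the replicate number as a block, 2 scalings, 2 filters on dim genes, other uses of probe sets, other variance models, stricter thresholds and leaving out each array. Leaving out SP-C+ replicates 4 and 5 or 1, 2 and 3, a Y-linked covariate and the other Tctn3 probe set were added after the data were seen. Promoter sequences are RefSeq's (GRCm38.p6).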

Additional observations from a re-analysis of the deposited data

Results flagged for a closer look

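A value is named here when the gap between the highest or lowest of 5 arrays and its neighbour took more than 0.71 of the group's range, which chance does in about 1 of 20 groups. Over all genes this was so in 5.20% of genes in Axin2+ arrays and 5.37% in SP-C+ arrays, and among the 35 cilium genes in 3 and 5. SP-C+ replicate 1 was such a low array in 4 of the 35 cilium genes, against 0.884% of all genes: Bbs9 was at 7.70 there against 8.35 to 8.43 in the others, Ift140 at 6.71 against 7.32 to 7.50, Ift172 at 6.74 against 7.54 to 7.73 and Ift80 at 7.24 against 8.39 to 8.67. Bbs4 was low in SP-C+ replicate 3, at 6.72 against 6.94 to 7.03.

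In Axin2+ arrays, Bbs12 was low in replicate 4 (5.96 against 6.45 to 6.60), Wdr35 in replicate 2 (8.15 against 8.45 to 8.57) and Tctn3 in replicate 5 (7.78 against 7.90 to 7.92). Of genes outside the 35, Anks6 was low in Axin2+ replicate 3 (6.39 against 6.80 to 6.86) and Mkks high in Axin2+ replicate 1 (7.35 against 7.02 to 7.08).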

How the results depend on the processing

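Of the 18 cilium genes called higher, 12 were called higher in all of 22 alternative fits, the other Tctn3 probe set aside. The other 6 (Bbs9, Ift57, Ift74, Ift81, Nphp4 and Wdr19) lost the call in at least 1. The stricter thresholds are not among the 22. At an adjusted p under 0.01 Ift172 did not pass and Ift74 did, so the 12 genes passing there are not the same 12. The count of cilium genes called higher was 14 to 17 without 1 array. It was 15 with median centring, quantile normalization or all probe sets, and 12 at an adjusted p under 0.01. With the Y-linked covariate it was 16. At 2-fold or more in limma it was 0, as were the counts of lower cilium genes and of hedgehog genes in either direction; other cilium genes then numbered 1 higher and 0 lower, and all these follow from the size of the differences. The count of lower cilium genes was 1 without any 1 array and 0 without SP-C+ arrays 1, 2 and 3. The median difference was 0.29 to 0.38 without 1 array and 0.27 with median centring.

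Other cilium genes called lower numbered 2 at an adjusted p under 0.01 and 2 without SP-C+ arrays 1, 2 and 3. Hedgehog genes called higher numbered 1 at an adjusted p under 0.01 and 1 without those arrays; those called lower numbered 3 with median centring, 2 with the mean over probe sets, 0 above the 50th percentile, where fewer genes were tested, and 0 without SP-C+ arrays 1, 2 and 3. Multiciliated markers called higher numbered 16 above the 50th percentile, where fewer were tested. Without 1 array the counts were 24 to 25 for these markers, 19 to 21 and 4 to 5 for other cilium genes (higher and lower), and 2 to 4 higher and 1 lower for hedgehog genes. In these fits Axin2 lay between -0.58 and -0.50 and Sftpc between 0.09 and 0.11, and over all fits between -0.63 (median centring) and -0.43 (mean over probe sets) for Axin2. Where no construction of the fit shows it, the cause was not tested.

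Among the genes that did not pass, 9 cilium genes and Rfx3 changed sign in at least 1 fit and passed in none of those. With median centring Bbs12 was at -0.066, Bbs4 at -0.062, Bbs7 at -0.074, Cluap1 at -0.034, Ift80 at -0.042, Mks1 at -0.0038 and Rfx3 at -0.020. With quantile normalization Bbs12 was at -0.063, Bbs4 at -0.073 and Bbs7 at -0.058. With array weights Ift80 was at -0.024. Without SP-C+ arrays 4 and 5 Bbs2 was at 0.083, Bbs7 at -0.087 and Ttc21b at 0.080. Without SP-C+ arrays 1, 2 and 3 Bbs12 was at -0.031, Cc2d2a at -0.048, Cluap1 at -0.066, Ift80 at -0.21 and Rfx3 at -0.16. With the Y-linked covariate Bbs12 was at -0.065. Without 1 array the ranges were -0.020 to 0.14 for Bbs12, -0.063 to 0.044 for Bbs2, -0.021 to 0.067 for Bbs4, -0.041 to 0.080 for Bbs7, -0.21 to 0.15 for Ift80 and -0.058 to 0.14 for Rfx3.

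Same-numbered arrays of the groups did not deviate together: the correlations of their deviations ran from -0.23 to 0.01 and 0 of 5 arrays correlated best with their own number. With the replicate block 16 cilium genes were higher and 1 was lower, and the calls of Ift57 (adjusted p = 0.0969), Ift81 (0.0650), Anks6 (0.0588) and Ptch1 (0.0786) were lost.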
